A study of Sus scrofa with 6 samples.

Results

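Interferon-stimulated genes of the piglet lung were followed from the last day before birth to 2 days after it. A list of 55 gene symbols was searched by gene identifier among the 14579 mRNAs of the deposited table, with pig Ensembl gene names and, where a name was missing, the name in the study's own table of differential genes. Of the 55 symbols, 36 were found in 38 rows, and the other 19 symbols, which could not be matched to a row, are not analysed here. The table holds 4739 rows without a name in either source. The rows ENSSSCG00000010453 (IFIT1) and ENSSSCG00000006924 (GBP1) took their names from the study's table, so that they entered the list only because these same samples had been called different there. The lungs came from 6 female hybrid piglets with Tibetan sires and Meishan dams. The fetal group held 3 piglets taken from 3 sows just before the end of a pregnancy counted as 113 days, and the neonatal group held 3 piglets of another 3 sows at 2 days of age. Each library was made from the lung of 1 piglet and depleted of ribosomal RNA, and the labels name no treatment. Since each piglet had a sow of its own, piglet and sow cannot be told apart. The samples are called Fetal1 to Fetal3 and Neonatal1 to Neonatal3 after the replicate numbers of the labels.

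Interferons are cytokines that cells release when they sense viral or other foreign nucleic acid. Type I interferon binds the receptor IFNAR1/IFNAR2, whose kinases activate STAT proteins. STAT2 joins IRF9 in a complex that enters the nucleus and switches on a large set of genes, among them GTPases that block virus particles, enzymes that degrade or sequester viral RNA, and the sensors and factors that amplify the response itself. In the lung, airway and alveolar epithelial cells, macrophages and endothelial cells can all mount this response.

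Values are FPKM, counts of sequenced fragments divided by gene length and by the mapped fragments of the library, so that levels of different genes can be compared. Group differences of log2(FPKM + 1) were fitted in limma with Benjamini-Hochberg correction for 14579 mRNAs, and "past the threshold" means an adjusted p of 0.05 or less. The files hold no read counts per gene, so that the number of reads behind a single value is unknown and the spread over 3 piglets was the only error available. Where a gene has the value 0 it is written as listed at 0, since the estimate may have failed. The lung surfactant genes SFTPA1, SFTPB, SFTPC and SFTPD were abundant in each sample, SFTPC between 3171 and 8790 FPKM. The summed FPKM of the mRNAs ran from 339491 to 471220 in the fetal samples and was 491548, 603756 and 777982 in Neonatal1, Neonatal2 and Neonatal3. The median mRNA of Neonatal3 stood only 0.19 above the fetal mean on the log2 scale. Against the mean of Neonatal1 and Neonatal2 it stood 0.12 higher, and after median-of-ratios scaling this difference was 0.0035.

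Interferon-stimulated genes were higher in the neonatal group in 37 of the 38 rows, but only 3 rows were past the threshold, and the height of the neonatal values rested on Neonatal3 more than on the other piglets. The 3 genes that rose were IRF1, MX2 and the GBP1 row ENSSSCG00000006924. Among all mRNAs 59.9% had a higher neonatal mean and 5.41% were past the threshold in that direction, and 3 of 38 rows is 7.89%. Without the 2 rows named from the study's table of differential genes, 2 of 36 rows rose, IRF1 and MX2. These shares were near that of the whole table. No member fell, against 1.45% of all mRNAs. An unadjusted p under 0.05 in limma, counted in either direction, was reached by 19 of the 38 rows and by 3535 of the 14579 mRNAs. In 24 of the 38 rows the lowest neonatal value exceeded the highest fetal one, against 20.9% of all mRNAs. The median difference over the 38 rows was 1.12 on the log2(FPKM + 1) scale, beside 0.13 over all mRNAs.

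The authors kept mRNAs with FPKM above 0.5 in at least 1 sample. Of the 38 rows, 36 met this filter in a fetal sample. DDX60 and ISG20 met it in neonatal samples alone, so that a difference between the groups was built into their presence. ISG20 met it through Neonatal3 alone, so that its excess there was built in as well. Among the 36, the groups did not overlap in 23. ISG20 and RSAD2 were the 2 rows listed at 0 in a sample.

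**Figure D1:**
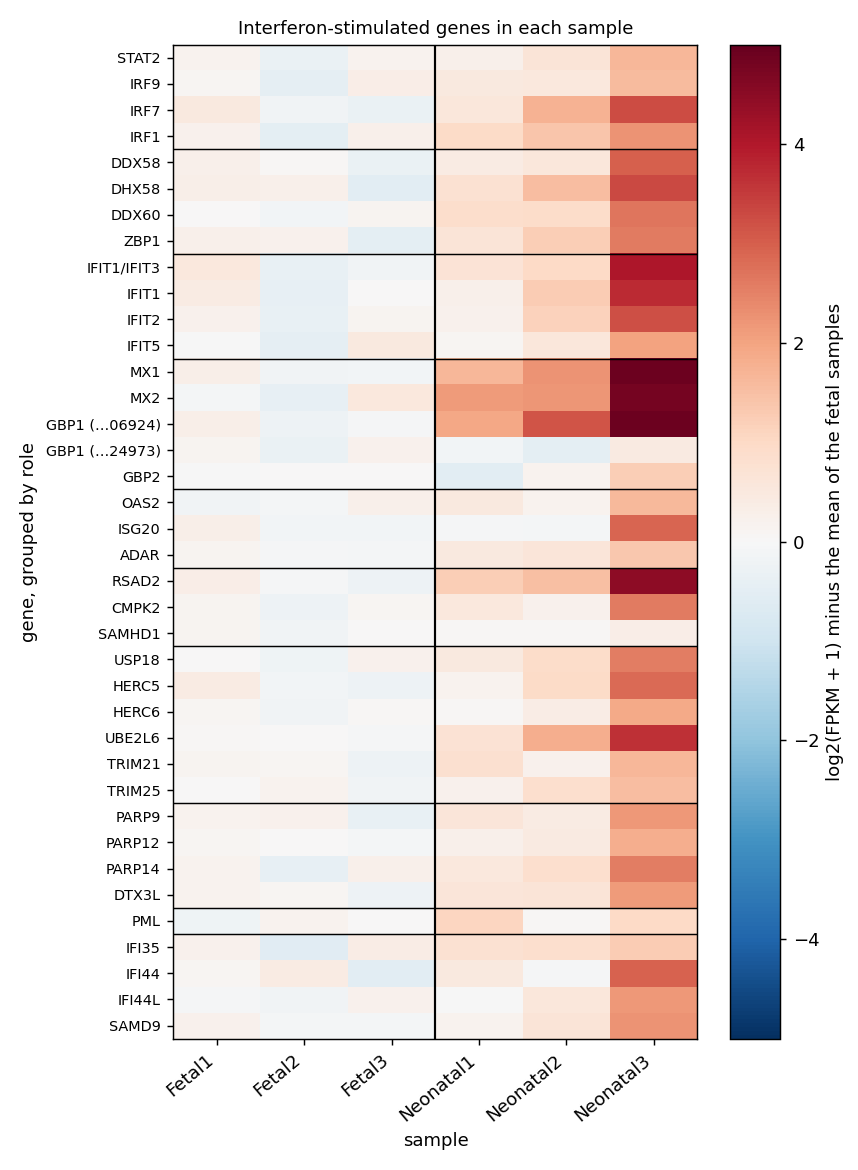
Colour gives log2(FPKM + 1) of each of the 38 rows (vertical, grouped by role, with lines between the roles) in each of the 6 samples (horizontal), minus the mean of the fetal samples of that gene. The column of Neonatal3 is the darkest, with a median of 2.40, against 0.50 in Neonatal1 and 0.64 in Neonatal2. The 2 rows named GBP1 are labelled with the end of their identifiers.

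The 3 neonatal piglets differed widely in these genes. As differences from each gene's fetal mean, the median of the 38 rows was 0.50 in Neonatal1, 0.64 in Neonatal2 and 2.40 in Neonatal3 on the log2 scale, while the fetal samples had medians of 0.16, -0.15 and -0.02. The median of all mRNAs in the same neonatal samples was 0.05, 0.13 and 0.19. Neonatal1 exceeded every fetal value in 27 of the 38 rows, against 35.4% of all mRNAs. Neonatal2 did so in 32 rows, against 42.2% of all mRNAs, and Neonatal3 in 38 rows, against 46.6%. In each of the 3 lungs most rows were thus above the fetal range, and in 24 rows all 3 were. In 11 rows Neonatal3 and 1 other neonatal piglet were above that range, and in 3 rows Neonatal3 alone.

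Neonatal3 had the highest neonatal value in 37 of the 38 rows, where 43.8% of all mRNAs had theirs in this piglet. It was also the highest of the 6 samples in 37 rows, against 29.8% of all mRNAs, and the exception was PML. In 30 of the 38 rows Neonatal3 reached at least 2 times the highest of the other 5 samples, which held for 2.60% of all mRNAs. With DDX60 and ISG20 left aside, this was the case in 28 of 36 rows. The lowest neonatal value lay in Neonatal1 in 30 rows and in Neonatal2 in 8. The share of all mRNAs is not given here for this count. The median mRNA of Neonatal1 also stood lower, at -0.12 against the mean of Neonatal2 and Neonatal3 on the log2 scale. Over the 38 rows the median SD of log2(FPKM + 1) was 0.28 in the fetal group and 1.06 in the neonatal group, while Neonatal1 and Neonatal2 alone had a median SD of 0.28. For all mRNAs these medians were 0.25, 0.30 and 0.24. Neonatal3 is 1 piglet, so its difference from the other neonatal piglets has no replicate and was not tested.

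**Figure D2:**
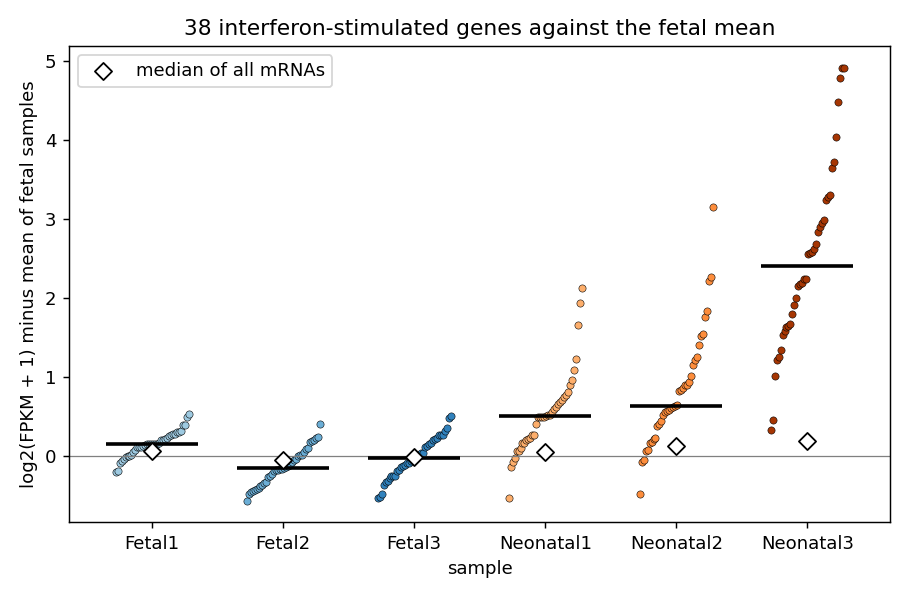
Each point is 1 of the 38 rows, placed by log2(FPKM + 1) minus its mean in the fetal samples (vertical) and grouped by sample (horizontal); the bar is the median of the 38 rows and the diamond the median of all mRNAs. The medians of the rows were 0.50, 0.64 and 2.40 in Neonatal1, Neonatal2 and Neonatal3, and the diamonds stayed between -0.05 and 0.19.

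The factors that carry the signal into the nucleus came first. STAT2 and IRF9, which are parts of the complex that binds interferon-responsive promoters, were moderately abundant, with STAT2 at 14.2, 9.88 and 14.2 FPKM in the order Fetal1 to Fetal3 and at 15.02, 20.02 and 42.5 FPKM in the order Neonatal1 to Neonatal3, an order kept from here on. IRF9 stood at 16.7, 11.1 and 19.5 FPKM before birth and at 22.0, 22.6 and 48.0 FPKM after it. For both genes the groups did not overlap, with Neonatal1 just above the fetal samples and Neonatal3 far above. The log2 differences of 0.85 for STAT2 and 0.86 for IRF9 were not past the threshold (adjusted p = 0.215 and 0.182).

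IRF7 is the factor that interferon itself induces and that then drives further interferon synthesis. It had 5.80, 3.28 and 2.84 FPKM before birth and 6.11, 15.3 and 45.7 FPKM after it. The neonatal values were thus spread over a wide range, the lowest hardly above Fetal1. The log2 difference of 1.87 (standard error 0.62) had an adjusted p of 0.125. The adjusted p was 0.0498 without Neonatal1 and 0.196 to 0.323 with any other single sample left out. IRF1, an activator that responds to interferon gamma and to inflammatory cytokines as well as to type I interferon, was measured at 15.4, 9.21 and 16.1 FPKM before birth and at 26.6, 36.7 and 66.3 FPKM after it. Each neonatal lung had clearly more IRF1 than each fetal lung, and Neonatal3 exceeded the mean of the other neonatal piglets by a factor of 2.096, which is among the smaller such ratios of the list. IRF1 rose by 1.54 on the log2 scale (standard error 0.36, adjusted p = 0.0488). This call was lost, at adjusted p values from 0.110 to 0.188, without Fetal1, Fetal2, Fetal3, Neonatal2 or Neonatal3, at 0.0546 without the variance trend and at 0.0622 with the replicate number as a block.

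**Figure D3:**
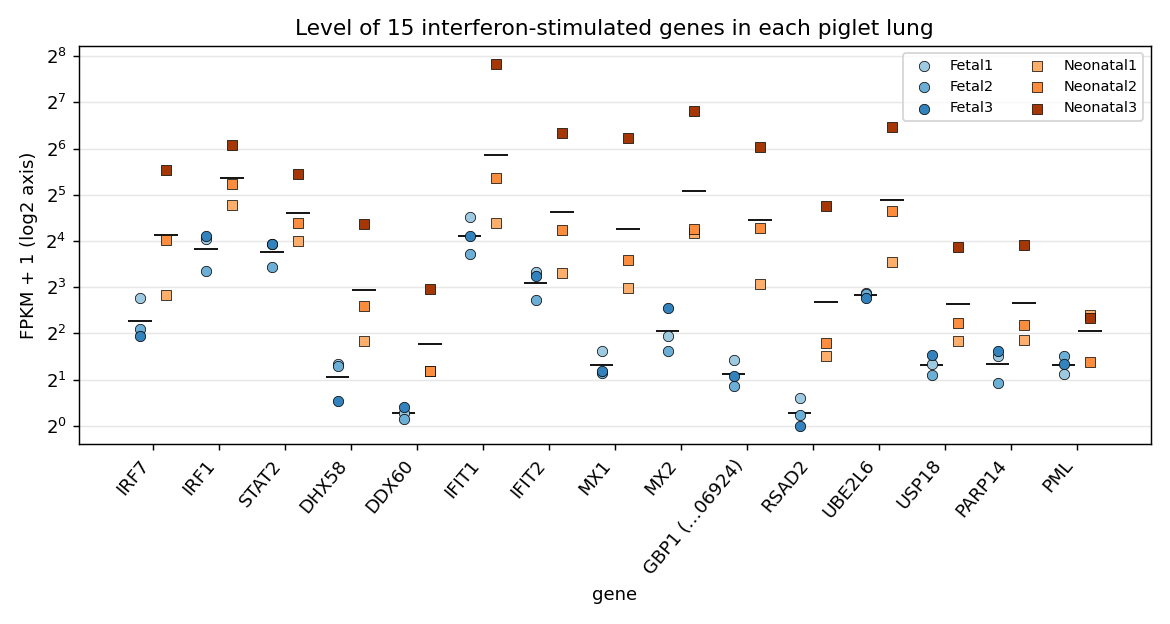
FPKM + 1 on a log2 axis (vertical) for 15 interferon-stimulated genes (horizontal), with circles for the 3 fetal and squares for the 3 neonatal samples and a bar at the group mean of log2(FPKM + 1). Neonatal3 is the top square of each gene but PML, where Neonatal1 has 4.29 FPKM and Neonatal3 4.03. The row of GBP1 shown is ENSSSCG00000006924.

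Sensors of foreign nucleic acid formed the next group, with rows for 4 of 5 symbols. DDX58, the receptor RIG-I for viral RNA ends, which the reference names RIGI, had 1.60, 1.24 and 0.73 FPKM before birth and 1.85, 2.17 and 16.2 FPKM after it. DHX58 (LGP2), its regulator, had 1.53, 1.46 and 0.45 FPKM before birth and 2.55, 5.06 and 19.5 FPKM after it. Both genes separated the groups, but in DDX58 the first 2 neonatal piglets stayed near the fetal level, whereas in DHX58 Neonatal2 was also well above it. DDX60, a helicase that assists these receptors, was at 0.22, 0.11 and 0.33 FPKM and then at 1.26, 1.27 and 6.77 FPKM, so that Neonatal1 and Neonatal2 agreed closely. ZBP1, a sensor of left-handed double helices that can trigger cell death, was at 4.11, 4.0002 and 2.06 FPKM and then at 5.76, 8.96 and 25.2 FPKM. In these 4 genes every neonatal value was above every fetal one, against 20.9% of all mRNAs. Since DDX60 met the authors' filter in neonatal samples alone, a difference between the groups was built into its presence. The log2 differences of the 4 genes lay between 1.31 and 1.87, and none was past the threshold (adjusted p = 0.110 to 0.263).

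The IFIT proteins bind viral RNA and inhibit its translation, and their genes lie in a cluster. The row ENSSSCG00000010453, named IFIT1 by the study's table, reached the highest level of the list. It had 21.8, 12.1 and 16.3 FPKM before birth and 19.9, 40.3 and 226 FPKM after it. Neonatal1 lay within the fetal range and Neonatal3 at 5.62 times the next highest sample. The row ENSSSCG00000010452 is named IFIT1 by the reference and IFIT3 by the study's table and stood at 6.20, 2.85 and 3.40 FPKM and then at 6.95, 9.02 and 80.4 FPKM. Since the names conflict and members of this family are alike in sequence, its identity is uncertain, and so is the share of reads between the 2 rows. IFIT2 had 8.999, 5.57 and 8.45 FPKM before birth and 8.89, 17.9 and 79.3 FPKM after it, again with Neonatal1 inside the fetal range. IFIT5 showed the same order at lower contrast, with 10.0, 7.23 and 14.8 FPKM before birth and 11.1, 15.9 and 44.2 FPKM after it. The log2 differences of the 4 rows, from 0.89 to 1.91, were not past the threshold (adjusted p = 0.208 to 0.305), and only in ENSSSCG00000010452 did the groups not overlap.

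Large GTPases held the strongest differences of the list. MX1 and MX2 assemble into rings that trap viral nucleocapsids, and their expression is a common readout of type I and type III interferon. MX1 had 2.09, 1.21 and 1.28 FPKM before birth and 6.86, 10.995 and 73.8 FPKM after it. MX2 had 2.87, 2.08 and 4.88 FPKM and then 16.9, 18.1 and 112 FPKM. All neonatal samples were well above all fetal ones, Neonatal1 at 4.49 times and 5.17 times the fetal mean of MX1 and MX2, and Neonatal3 at 48.3 and 34.2 times. MX2 rose by 3.04 (standard error 0.69, adjusted p = 0.0436), and MX1 differed by 2.94 (standard error 0.76, adjusted p = 0.0642). Without Neonatal3 the MX2 difference was 2.17 and still past the threshold (adjusted p = 0.0411), and MX1 passed there as well, at 1.96 (adjusted p = 0.0431). MX1 did not pass with any other single sample left out (adjusted p = 0.0549 to 0.225). The MX2 call was lost, at adjusted p values from 0.0585 to 0.187, when any of the other 5 samples was left out. MX1 and MX2 are paralogs, so that reads of shared stretches could have been divided between them.

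Guanylate-binding proteins attack the membranes of bacteria and of vacuoles inside cells. The row ENSSSCG00000006924, which the study's table names GBP1, had 1.68, 0.82 and 1.11 FPKM before birth and 7.34, 18.3 and 64.5 FPKM after it. The 3 neonatal values were 6.09, 15.2 and 53.6 times the fetal mean, in the order Neonatal1, Neonatal2, Neonatal3. With 3.33 (standard error 0.66, adjusted p = 0.0300) this was the largest difference of the list. It was past the threshold without Neonatal3 too, at 2.54 (adjusted p = 0.04996), but not without Fetal1, Fetal2, Fetal3 or Neonatal2 (adjusted p = 0.0975 to 0.142). A second row of that name, ENSSSCG00000024973, which the reference calls GBP1, stayed low, at 1.42, 0.73 and 1.51 FPKM and then at 1.00, 0.58 and 2.00 FPKM. It was the only row with a lower neonatal mean, by 0.05 on the log2 scale (adjusted p = 0.929), and its groups overlapped. GBP2 had 3.07, 3.13 and 3.15 FPKM before birth, a narrow range, and 1.86, 3.60 and 8.59 FPKM after it. Its log2 difference was 0.29 (adjusted p = 0.700), with Neonatal1 below and Neonatal3 above all fetal samples. The GBP genes form a family of close copies, so the split of reads among these 3 rows is uncertain.

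Among the enzymes that act on RNA no row was past the threshold. OAS2, which makes the oligoadenylates that activate RNase L, had 2.08, 2.32 and 3.22 FPKM before birth and 3.93, 2.97 and 9.85 FPKM after it, with Neonatal2 inside the fetal range. ADAR, the enzyme that edits adenosine to inosine in double-stranded RNA, had 7.84, 6.89 and 6.66 FPKM before birth and 10.5, 11.4 and 19.6 FPKM after it. ADAR is expressed at a basal level in most cells, and its groups did not overlap here, with a log2 difference of 0.82 (standard error 0.25, adjusted p = 0.102). ISG20, an exonuclease of single-stranded RNA, was listed at 0 in Fetal2 and Fetal3, had 0.34 FPKM in Fetal1 and 0.05 FPKM in both Neonatal1 and Neonatal2, and reached 7.21 FPKM in Neonatal3. Its Neonatal3 value was 20.9 times the next highest, the largest such ratio of the list. Since ISG20 met the authors' filter through Neonatal3 alone, this excess was built into its presence. The difference of 0.91 between the groups (adjusted p = 0.496) turned to -0.08 without Neonatal3. For OAS2 the difference was 0.77 (adjusted p = 0.260).

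RSAD2 (viperin) turns the nucleotide CTP into a chain terminator for viral polymerases, and CMPK2, the neighbouring gene, is a nucleotide kinase induced with it. RSAD2 had 0.51 and 0.17 FPKM in Fetal1 and Fetal2, was listed at 0 in Fetal3, and had 1.84, 2.45 and 25.9 FPKM after birth. CMPK2 had 1.58, 0.95 and 1.52 FPKM and then 2.34, 1.74 and 13.0 FPKM. In both genes the neonatal samples were all above the fetal ones and Neonatal3 stood apart, at 10.5 times the next sample for RSAD2 and 5.54 times for CMPK2. Their log2 differences were 2.41 (standard error 0.79, adjusted p = 0.120) and 1.11 (standard error 0.58, adjusted p = 0.285). SAMHD1 depletes the deoxynucleotides that reverse transcription needs. It had between 0.46 and 0.85 FPKM before birth and 0.74, 0.75 and 1.10 FPKM after it, and its log2 difference of 0.16 was within the spread (adjusted p = 0.679).

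ISG15 is a ubiquitin-like tag that interferon induces, and no row could be matched to it, but rows of its enzymes were found. UBE2L6, the conjugating enzyme that loads ISG15 onto targets, had 6.32, 6.17 and 5.78 FPKM before birth and 10.6, 24.2 and 87.4 FPKM after it. The fetal values were nearly alike and the neonatal ones differed by several fold, Neonatal3 reaching 14.4 times the fetal mean. The log2 difference was 2.06 (standard error 0.64, adjusted p = 0.106). It was past the threshold without Neonatal1 (2.74, adjusted p = 0.0450), but not with any other single sample left out (adjusted p = 0.130 to 0.281). USP18, which removes ISG15 and also shuts off the type I receptor, had 1.51, 1.14 and 1.91 FPKM and then 2.54, 3.66 and 13.7 FPKM (log2 difference 1.32, adjusted p = 0.164). HERC5, known in humans as the ligase for ISG15, had 0.81, 0.24 and 0.16 FPKM and then 0.54, 1.64 and 8.795 FPKM (log2 difference 1.31, adjusted p = 0.246). UBE2L6 and USP18 separated the groups, and HERC5 did not, since Neonatal1 lay below Fetal1. Its relative HERC6, at 10.4, 8.46 and 9.86 FPKM and then at 10.0, 12.8 and 38.6 FPKM, was higher throughout, and Neonatal1 stayed within the fetal range.

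Ubiquitin ligases that act in antiviral signalling gave smaller differences. TRIM21, a receptor for antibody-coated particles in the cytosol, had 3.63, 3.48 and 2.503 FPKM before birth and 6.30, 3.87 and 12.1 FPKM after it. TRIM25, which ubiquitinates proteins of the RIG-I pathway, had 19.1, 21.6 and 16.6 FPKM and then 22.0, 35.3 and 56.7 FPKM. Their groups did not overlap, but Neonatal2 was the lowest neonatal sample for TRIM21 and Neonatal1 for TRIM25. The log2 differences were 0.89 and 0.86 (adjusted p = 0.183 and 0.165).

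PARP9, PARP12 and PARP14 belong to the ADP-ribosyltransferase family, and DTX3L is the ubiquitin ligase that works as a partner of PARP9. PARP14 had 1.83, 0.89 and 2.05 FPKM before birth and 2.63, 3.54 and 14.0 FPKM after it. DTX3L had 3.10, 2.91 and 2.09 FPKM and then 4.55, 4.73 and 15.2 FPKM, and PARP9 3.23, 3.37 and 1.94 FPKM and then 4.798, 4.001 and 16.1 FPKM. The partners DTX3L and PARP9 thus had almost the same levels in each sample. PARP12 had between 1.64 and 1.97 FPKM before birth and 2.39, 2.84 and 8.79 FPKM after it. The groups did not overlap in any of the 4 genes, with every neonatal value the higher, against 20.9% of all mRNAs. Neonatal3 exceeded the mean of the other neonatal piglets by 3.29 to 4.53 times in them, and the log2 differences of 0.84 to 1.31 were not past the threshold (adjusted p = 0.157 to 0.243).

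PML, the scaffold of nuclear bodies, was the only row in which Neonatal3 was not the highest sample. It had 1.16, 1.84 and 1.53 FPKM before birth and 4.29, 1.62 and 4.03 FPKM after it, so that Neonatal1 was the highest and Neonatal2 lay in the fetal range (log2 difference 0.72, adjusted p = 0.203). IFI35, a protein released by injured cells and also found in the cytosol, had 5.19, 2.63 and 5.84 FPKM and then 8.03, 8.52 and 11.8 FPKM. It separated the groups with neonatal piglets close to each other, Neonatal3 at 1.43 times the mean of the others (log2 difference 0.95, adjusted p = 0.0982). IFI44 had 1.41, 1.95 and 0.56 FPKM and then 2.13, 1.15 and 16.2 FPKM, and Neonatal3 alone was far from the rest. IFI44L, its neighbour in name and sequence, had 7.82, 7.24 and 9.85 FPKM and then 8.07, 12.7 and 41.0 FPKM. SAMD9, a restriction factor of poxviruses, had 5.65, 4.28 and 4.30 FPKM and then 5.43, 7.87 and 26.0 FPKM. In IFI44, IFI44L and SAMD9 the groups overlapped, and the log2 differences of 1.13, 0.91 and 1.02 had adjusted p values of 0.381, 0.321 and 0.254.

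Neonatal3 stood above the mean of Neonatal1 and Neonatal2 on the log2 scale in each of the 38 rows. Leaving it out therefore lowered the signed difference in each of them. The median over the rows was 0.56 in place of 1.12, beside 0.09 for all mRNAs. Again 3 rows were past the threshold, MX1, MX2 and the GBP1 row ENSSSCG00000006924, where 1.75% of all mRNAs were past it in this direction. The GBP1 row entered the list only because these same samples had been called different, so that its difference was known beforehand. MX1 and MX2 were named from the reference. The median standard error of the rows fell from 0.49 to 0.26, which is near the 0.25 of all mRNAs. The rows with the largest differences in Neonatal1 and Neonatal2 were GBP1 (ENSSSCG00000006924) with 2.54, MX2 with 2.17, MX1 with 1.96, RSAD2 with 1.37 and UBE2L6 with 1.27. RSAD2 was not past the threshold there (adjusted p = 0.0616). For IFIT1 (ENSSSCG00000010453) the difference went from 1.75 to 0.76, for DDX58 from 1.31 to 0.48, and for IFI44 from 1.13 to 0.22.

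**Figure D4:**
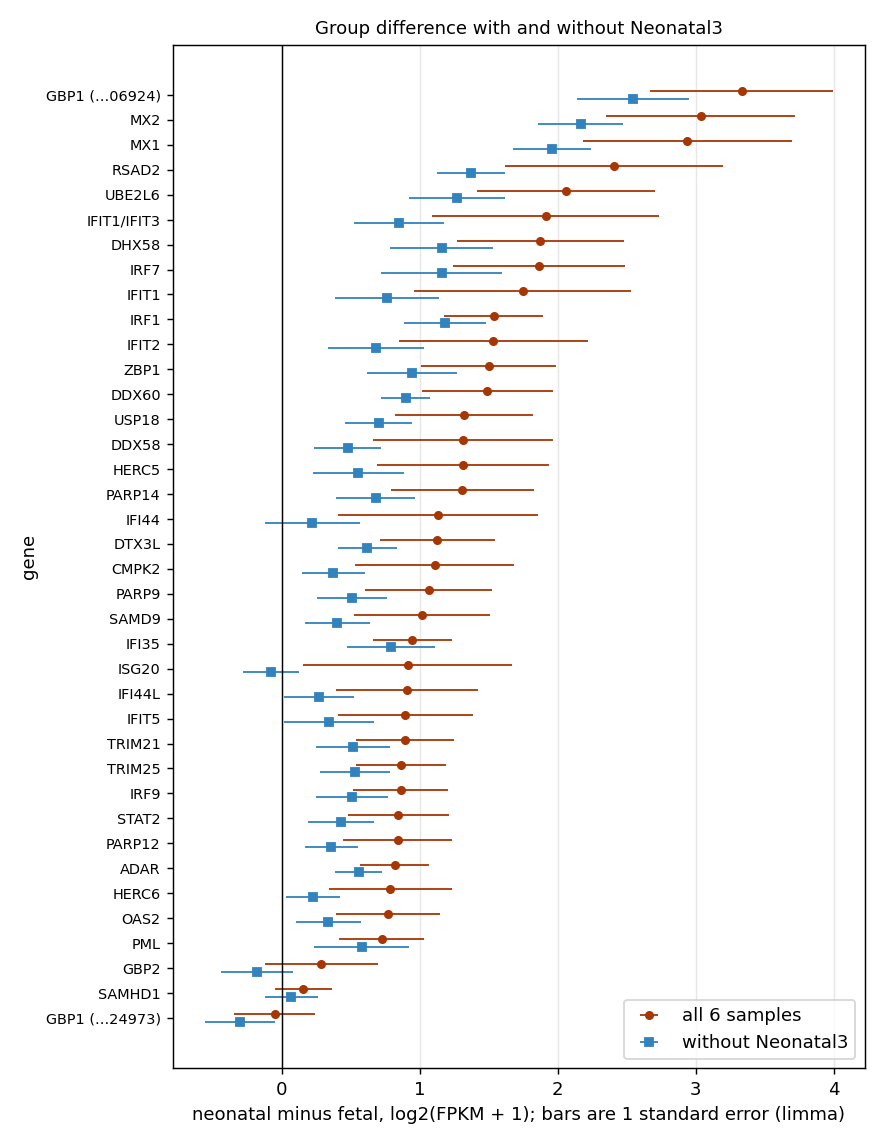
Neonatal minus fetal difference of log2(FPKM + 1) (horizontal) for each of the 38 rows (vertical, sorted), fitted in limma with all 6 samples (circles) and without Neonatal3 (squares); bars are 1 standard error. Squares lie to the left of the circles in each row, with GBP1 (ENSSSCG00000006924) at 3.33 and 2.54, and ISG20 and GBP2 move to the other side of 0, to -0.08 and -0.18.

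Other genes of the interferon pathway were taken from a separate list of 57 symbols, of which 32 were matched to a row. Of these, 3 were past the threshold and higher, against 5.41% of all mRNAs, and 0 were lower, and the median log2 difference of the 32 was 0.52. The groups did not overlap in 11 of the 32, against 20.9% of all mRNAs. In 3 rows Neonatal3 reached at least 2 times the highest of the other samples, against 2.60%. These 3 were CXCL10, TLR3 and TAP1. CXCL10 was named from the study's table of differential genes. TAP1 was listed at 0 in each other sample and had 0.54 FPKM in Neonatal3, so that its excess there was built into its presence. TLR7 is among the 11 rows and among the 3 past the threshold. It met the authors' filter in neonatal samples alone, so that a difference between the groups was built into its presence. The receptor chain and the kinases at the cell membrane had small differences, none past the threshold. IFNGR1, a chain of the interferon gamma receptor, had between 13.4 and 20.05 FPKM before birth and between 13.7 and 19.1 FPKM after it (log2 difference -0.08, adjusted p = 0.853). JAK1, the kinase shared by the type I, II and III receptors, had 25.9, 24.3 and 19.1 FPKM before birth and 26.2, 26.1 and 35.8 FPKM after it (log2 difference 0.33, adjusted p = 0.375). JAK2 and TYK2 had log2 differences of -0.37 and 0.27 (adjusted p = 0.305 and 0.447). STAT3, which serves other cytokines, had 55.3, 40.8 and 55.6 FPKM and then 65.0, 67.5 and 74.2 FPKM, with neonatal piglets close together.

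Of the other IRF genes 3 were matched, with log2 differences from -0.01 to 0.97 and none past the threshold, IRF5 being the highest (adjusted p = 0.199). IRF2 had between 10.1 and 10.9 FPKM before birth and between 9.61 and 11.4 FPKM after it (log2 difference -0.01, adjusted p = 0.973), and IRF3, the constitutive factor downstream of the sensors, had a log2 difference of 0.17 (adjusted p = 0.660). Of the sensor adaptors, kinases and Toll-like receptors 10 were matched, all with a higher neonatal mean and 2 past the threshold. TICAM1, the adaptor of TLR3, had a log2 difference of 0.99 (adjusted p = 0.0692), the kinase gene IKBKE 0.81 (adjusted p = 0.204) and TRAF3, a signalling ligase, 0.68 (adjusted p = 0.0531). MAVS, the adaptor of RIG-I on mitochondria, had 0.44 (adjusted p = 0.293), and TMEM173 (STING) had 0.67 (adjusted p = 0.285). Among the receptors of endosomal RNA, TLR7 rose from 0.33, 0.28 and 0.08 FPKM to 1.04, 1.22 and 1.42 FPKM. Its log2 difference was 0.86 (standard error 0.20, adjusted p = 0.0493), and it stayed low. Since TLR7 met the authors' filter in neonatal samples alone, a difference between the groups was built into its presence. The call was lost with all 6 samples at pseudocounts of 0.5 and 0.1 (adjusted p = 0.0503 and 0.0608), after median-of-ratios scaling (0.0564) and with genes kept only if 3 or more samples exceeded 1 FPKM (0.0590), and also without any 1 of the samples (adjusted p = 0.0546 to 0.129) and at 0.142 with the replicate number as a block. TLR8 rose by 1.34 (standard error 0.29, adjusted p = 0.0387), a call lost without each sample but Neonatal1 (adjusted p = 0.0750 to 0.161) and at 0.0835 with the block. Unlike the IFIT and MX genes, TLR7 had neonatal values close to each other.

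**Figure D5:**
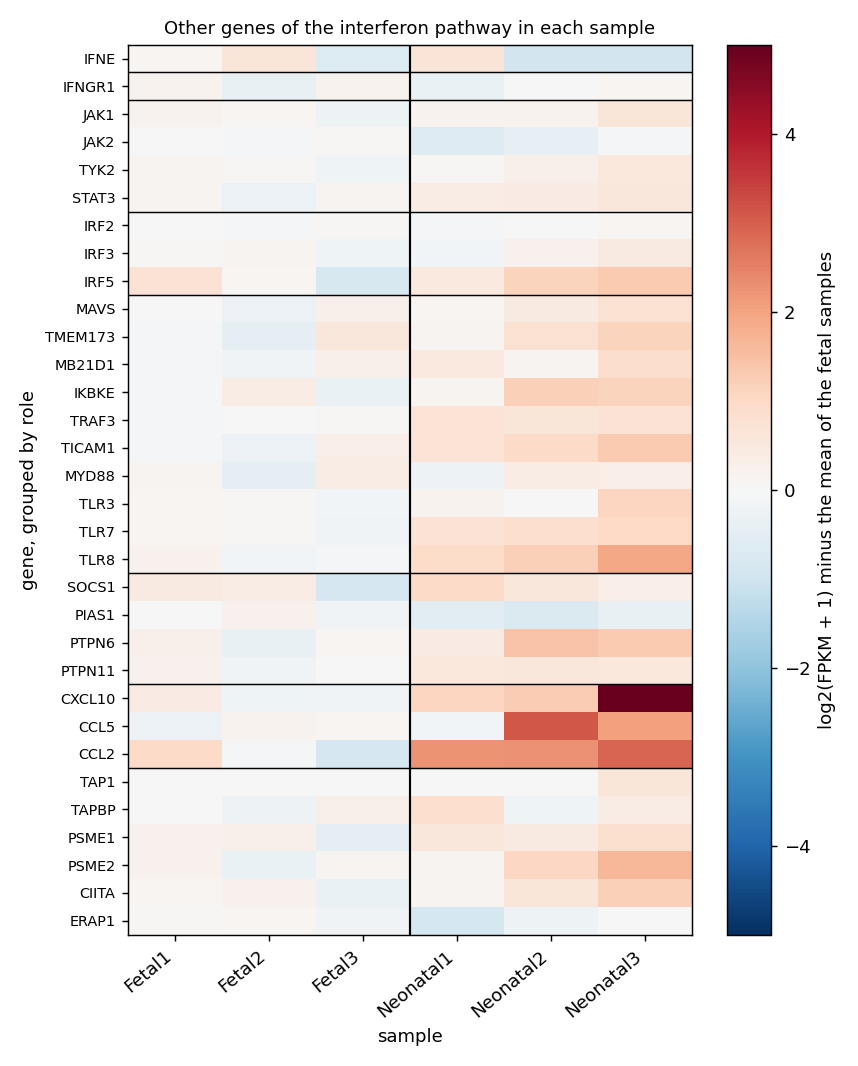
Colour gives log2(FPKM + 1) of the 32 other genes of the pathway (vertical, grouped by step, with lines between the steps) in each sample (horizontal), minus the mean of the fetal samples of that gene, on the colour scale of the plot of the 38 rows. CXCL10 in Neonatal3, at 134 FPKM, is the darkest field, and receptor chains, JAK kinases and IRF2 stay pale.

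Chemokines that interferon induces were among the largest differences. CXCL10, which draws T and NK cells and is a classical interferon target, took its name from the study's table of differential genes. It had 4.38, 2.49 and 2.62 FPKM before birth and 7.53, 8.83 and 134 FPKM after it. Neonatal3 was at 15.2 times the next highest sample, and the log2 difference of 2.46 (standard error 0.97) was not past the threshold (adjusted p = 0.179). CCL2, which draws monocytes, rose from 5.91, 2.32 and 1.00 FPKM to 15.997, 16.6 and 25.9 FPKM, a log2 difference of 2.48 (standard error 0.44, adjusted p = 0.0206). This call was lost without Fetal2, Fetal3, Neonatal1, Neonatal2 or Neonatal3 (adjusted p = 0.0544 to 0.110). CCL5 had 4.15, 6.17 and 5.85 FPKM and then 4.69, 52.9 and 25.1 FPKM, and it was highest in Neonatal2. Its difference of 1.66 had an adjusted p of 0.215. Without Neonatal1 the difference was 2.57 (adjusted p = 0.0274). With any other single sample left out the adjusted p of CCL5 was 0.342 to 0.450. The proteasome activator genes PSME1 and PSME2, of the antigen processing step, had log2 differences of 0.61 and 0.95 (adjusted p = 0.168 and 0.183). Of the 9 interferon genes searched only IFNE was matched to a row, at 1.24, 2.16 and 0.31 FPKM and then at 2.31, 0.10 and 0.10 FPKM. The inhibitor SOCS1 had 1.45 and 1.35 FPKM in Fetal1 and Fetal2, was listed at 0 in Fetal3, and had 2.43, 1.63 and 1.23 FPKM after birth. Neonatal3 was thus the lowest neonatal sample for SOCS1.

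Lung tissue holds many cell types, and in RNA of whole tissue a larger number of cells of a type and more RNA per cell cannot be told apart. Summed FPKM of 7 macrophage markers of 9 ran from 403 to 940 in the fetal group and was 675, 1304 and 1592 in Neonatal1, Neonatal2 and Neonatal3, with 0 markers past the threshold. Of these macrophage markers C1QC, with 202, 418 and 455 FPKM after birth, was named from the study's table of differential genes. Summed FPKM of 5 neutrophil markers of 8 ran from 81.7 to 155 before birth and was 842, 1170 and 1311 after it, and S100A8, S100A9 and S100A12 were past the threshold. S100A9 and S100A12 were named from the study's table of differential genes, so that their difference was known when they were matched, and S100A8 alone of these rose with a name from the reference. S100A9 and S100A12 also held most of the neutrophil sum after birth, S100A12 alone 532, 761 and 889 FPKM. Much of the rise of that sum was thus known beforehand too. ELANE, a defining gene of neutrophil precursors, was listed at 0 in each neonatal sample. For 6 T and NK cell markers of 10 the sums were 8.07 to 10.3 before birth and 7.83, 14.4 and 21.7 after it. Macrophage, neutrophil and T and NK markers had summed levels lowest in Neonatal1 and highest in Neonatal3, with Neonatal3 at 1.61, 1.30 and 1.95 times the mean of the other neonatal piglets, and 7 lung epithelial markers of 8 stood at 1.56 times. Single T and NK cell markers differed in this ratio, which was 4.78 for CD3D, 4.95 for CD8A and 2.95 for CD4. These markers had 0.81 to 4.47 FPKM in Neonatal3. For CD2, NKG7 and PRF1 the ratios were 1.63, 1.58 and 1.18. For 3 B and plasma cell markers of 5 the sums were 2.37 to 3.36 FPKM before birth and 0.45, 2.01 and 1.23 FPKM after it. Of 7 plasmacytoid dendritic cell markers 2 were matched to a row, TCF4 and BCL11A, which are not particular to that cell, and their sum ran from 17.3 to 23.6 FPKM before birth and from 19.4 to 26.1 FPKM after it. The sum of 3 erythroid markers of 5 was between 1224 and 2669 FPKM before birth and between 890 and 1457 FPKM after it. The lung epithelial sum was mostly SFTPC, with 4233, 6097 and 8790 FPKM after birth. It included SFTPA1, named from the study's table of differential genes. Of the 7 epithelial markers, 0 were past the threshold, and SCGB1A1 alone had a lower neonatal mean. SCGB1A1 had 99.8 to 139 FPKM before birth and 62.2, 0.21 and 62.0 FPKM after it (adjusted p = 0.265). The part of these cells in the differences of the interferon-stimulated genes was not tested.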

How the data were processed

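Lung RNA of 3 fetal and 3 neonatal piglets was sequenced from strand-specific Ribo-Zero libraries. The authors mapped quality-filtered reads to Sscrofa10.2 with TopHat 2.1.0 and deposited FPKM per gene, computed with Cufflinks 2.2.1, for mRNAs above 0.5 FPKM in at least 1 sample. A table of lncRNAs was not used. Columns were matched to samples by title. Of the 14579 identifiers, 9478 took a symbol from a pig Ensembl table and 362 from the study's table of differential genes, whose other columns (fold changes, q values, levels) were not used.

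Values were analysed as log2(FPKM + 1), where differences of low genes are understated. The group comparison used R 4.3.3 and limma 3.58.1, allowing the variance to follow the mean level, and Benjamini-Hochberg adjustment over all rows, at an adjusted p of 0.05, after a test on simulated data. The methods' own test needs reads and could not be rerun. Nothing but the replicate number links samples across groups, and deviations of same-numbered samples did not correlate (-0.041, -0.0043 and 0.00047 for replicates 1, 2 and 3). Python 3.11.15 with pandas 2.3.3 gave counts and medians, and matplotlib 3.10.9 the figures. The members and lists were chosen with earlier results of these data known. Each of the 38 rows is named. The alternatives were other pseudocounts, scalings, filters and limma settings and each sample left out. The study gives mapped reads per library, which were not used here, and the files hold no counts per gene. No promoter or protein sequences were at hand. Some genes of the pathway list are not reported here.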

Additional observations from a re-analysis of the deposited data

How the results depend on the processing

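With all 6 samples, between 2 and 4 of the interferon-stimulated genes were past the threshold under pseudocounts of 0.5 and 0.1, median-of-ratios scaling, quantile normalization, the stricter filter, no variance trend, array weights and the replicate block. The fit with the replicate number as a block gave 2, MX2 and the GBP1 row ENSSSCG00000006924, and 1 of the pathway genes in place of 3, and array weights gave 6 pathway genes. Without the variance trend IRF1 was not past the threshold. The GBP1 row, named from the study's table of differential genes, is part of the count in each of these settings. The numbers do not pair the samples by design, and the block changed the call of IRF1, TLR7 and TLR8 alone among the genes of both lists. With 1 sample left out, the counts lay between 0 and 4 for the interferon-stimulated genes, at 0 without Fetal1, Fetal2, Fetal3 or Neonatal2, and between 0 and 3 for the pathway genes, at 0 without Fetal2, Fetal3, Neonatal2 or Neonatal3. Such fits rest on fewer samples. Without Neonatal3 the share of all mRNAs past the threshold and higher fell as well, from 5.41% to 1.75%. For the other settings the share of all mRNAs past the threshold is not given here. Whether the changes in these counts are particular to the listed genes was not tested. The median difference of the 38 rows ranged from 0.96 under quantile normalization to 1.47 with a pseudocount of 0.1, and from 0.56 to 1.45 with 1 sample left out. The count of rows without overlap was 19 after median-of-ratios scaling and 20 after quantile normalization, against 16.2% and 14.9% of all mRNAs. After these scalings Neonatal1 exceeded every fetal value in 24 and 25 rows (32.0% and 30.0% of all mRNAs), Neonatal2 in 27 and 28 (34.0% and 32.7%) and Neonatal3 in 38 and 38 (34.0% and 31.1%), a comparison added after the data were seen. The median excess of Neonatal3 over the mean of the other neonatal piglets was 1.81, and between 1.63 and 1.99 under the alternatives. Directions turned with 1 sample left out for GBP1 (ENSSSCG00000024973), between -0.31 and 0.16, GBP2, between -0.18 and 0.69, ISG20, between -0.078 and 1.41, IFNGR1, between -0.26 and 0.047, IRF2, between -0.069 and 0.042, and MYD88, between -0.10 and 0.34. After median-of-ratios scaling and quantile normalization IRF3 stood at -7.47e-05 and -0.10, and MYD88 at -0.0093 and -0.0058. The causes were not tested.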

Other observations

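Genes were ranked by how far Neonatal3 exceeded the highest of the other 5 samples, among the 5673 mRNAs with a symbol, at least 5 FPKM in Neonatal3 and a value above 0 in another sample. Of the 38 rows, 35 were in this ranking, with 4 among the first 10, 11 among the first 20 and 26 among the first 50. These counts include ISG20, at 20.9 times the next highest sample, whose excess was built into its presence by the authors' filter. The rows ENSSSCG00000010453 (IFIT1) and ENSSSCG00000006924 (GBP1) were ranked too, with symbols taken from the study's table of differential genes. Counts without these rows are not given here. The ranking is a description of 1 piglet and carries no test. Among the first 10 genes that stand in none of the lists, BATF2, GBP7, IFITM2 and IDO1 are known as interferon-induced genes. BATF2, a transcription factor of macrophages, had between 0.70 and 2.06 FPKM before birth and 1.18, 1.83 and 10.9 FPKM after it, in the order of the piglets. GBP7 had between 1.10 and 3.23 FPKM before birth and 2.08, 4.09 and 18.5 FPKM after it. IFITM2, a membrane protein that blocks virus entry, had 1.05, 6.37 and 2.63 FPKM and then 8.35, 15.2 and 63.1 FPKM, with all neonatal above all fetal values and an adjusted p of 0.0937 in limma. IDO1, which degrades tryptophan, had between 0.77 and 1.06 FPKM before birth and 0.79, 1.87 and 7.68 FPKM after it.

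The other 6 of these 10 genes were DOK6, IRAK3, GLMN, BRK1, ITGAV and TGM3. Their ratios of Neonatal3 to the next highest sample ran from 4.98 for TGM3 to 40.3 for DOK6, which was listed at 0 in 4 of the 6 samples and had 494 FPKM in Neonatal3. IRAK3, an inhibitor of Toll-like receptor signalling, had between 5.14 and 22.9 FPKM in the other samples and 571 FPKM in Neonatal3.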
